A study of Mus musculus with 8 samples.

Results

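NF-YA binding was followed at genes of the Notch, Wnt and TGF-beta pathways in MuSCs, muscle stem cells that repair skeletal muscle fibres. Members were all CUT&RUN peaks that the deposited table assigned to a protein-coding gene whose symbol names a core component of 1 of these pathways, such as a Notch receptor, a Frizzled or a SMAD. This rule used names alone and no measured value. It found 25 peaks at 22 genes, out of 7196 peaks in the whole table and 3837 peaks with a protein-coding gene. Notch components held 11 peaks at 9 genes, Wnt components 7 peaks at 7 genes, and TGF-beta and BMP components 7 peaks at 6 genes.

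The cells were activated MuSCs of C57BL/6 background, kept in culture, from control mice or from Taf4asKO mice. In Taf4asKO mice a tamoxifen-inducible Cre under the *Pax7* gene (Pax7CreERT) removes floxed exons of *Taf4a*, so that the deletion is limited to cells that express *Pax7* when tamoxifen is given. Each genotype had 2 NF-YA libraries, and the IgG libraries made beside them were not analysed here. CUT&RUN cuts out DNA next to an antibody-bound protein and holds no expression values, so that neither the identity of the cells nor the loss of *Taf4a* transcripts could be checked in these files. The labels do not say whether libraries came from separate cultures or animals, and p-values measure only the spread between these libraries. Weaker binding in each cell and binding in fewer cells cannot be told apart.

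Values are read counts per peak, normalised with DESeq2 and rounded to whole numbers by the authors. Between 111264 and 735275 reads fell in peaks per library. Both control libraries had fewer than both Taf4asKO libraries, so that reads in peaks and genotype cannot be told apart. In the shallowest library, control replicate 2, 1 read was worth 3.26 units and 587 of all peaks stood at 0.

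NF-YA is the sequence-specific subunit of NF-Y, a trimeric factor that recognises the CCAAT box of many promoters. TAF4A is a subunit of TFIID, the complex that helps to place RNA polymerase II at gene starts. Notch receptors are cut upon ligand binding and act with RBPJ and Mastermind proteins on *Hes* and *Hey* genes, a signal known to keep MuSCs quiescent. Wnt ligands bind Frizzled receptors and signal through Dishevelled proteins. TGF-beta and BMP ligands activate receptor kinases that phosphorylate SMAD proteins, which the inhibitory SMADs oppose.

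Sequences under strong pathway peaks and under the called *Mfng* peak are shown because the CCAAT box in them is the element NF-Y binds. Each is an 80-base window around the CCAAT nearest the peak centre, taken from GRCm38 (mm10) and written 5′ to 3′ on the strand of the gene. Capitals mark CCAAT or its reverse complement ATTGG, and TGGGAA or its reverse complement TTCCCA, the core of sites for RBPJ. The windows are those of the 10 strongest pathway peaks and of *Mfng*, without *Smad2*, which is not printed, and *Dvl3*, whose window overlaps an exon of another gene.
*Hes1* (chr16:30065204-30065283, plus strand): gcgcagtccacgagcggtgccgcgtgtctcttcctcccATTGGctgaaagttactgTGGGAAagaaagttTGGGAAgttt
*Hes6* (chr1:91413286-91413365, minus strand): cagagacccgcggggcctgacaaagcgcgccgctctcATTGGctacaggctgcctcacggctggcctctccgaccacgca
*Hey2* (chr10:30842882-30842961, minus strand): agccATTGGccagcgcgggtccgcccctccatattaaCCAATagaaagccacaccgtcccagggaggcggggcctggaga
*Mfng* (chr15:78763743-78763822, minus strand): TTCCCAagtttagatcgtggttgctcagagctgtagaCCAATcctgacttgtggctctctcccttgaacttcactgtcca
*Fzd2* (chr11:102604227-102604306, plus strand): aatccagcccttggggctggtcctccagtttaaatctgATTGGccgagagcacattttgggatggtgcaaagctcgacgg
*Fzd7* (chr1:59481954-59482033, plus strand): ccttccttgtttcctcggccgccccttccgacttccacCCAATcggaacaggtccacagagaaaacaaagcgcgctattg
*Wnt6* (chr1:74773240-74773319, plus strand): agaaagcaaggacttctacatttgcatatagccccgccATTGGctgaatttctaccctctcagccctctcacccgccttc
*Tgfbr1* (chr4:47353127-47353206, plus strand): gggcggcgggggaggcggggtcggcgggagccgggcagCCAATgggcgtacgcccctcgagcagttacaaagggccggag
*Smad6* (chr9:64023025-64023104, minus strand): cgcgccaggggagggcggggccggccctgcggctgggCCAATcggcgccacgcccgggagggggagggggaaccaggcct

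CCAAT lay in the central 200 bases of 21 of the 25 pathway peaks (84%, 95% Wilson interval 65.3% to 93.6%) and of 78.5% of all peaks. Among pathway peaks within 1000 bases of the assigned start 13 of 14 held it, beside 88.2% of the 2586 such peaks of protein-coding genes. The 4 pathway peaks without it in the centre were the weaker *Hes6* peak, both *Heyl* peaks and the *Notch3* peak, and over the whole peak 22 held it, with *Notch3* added. 2 or more CCAAT lay in 11 pathway peaks (44%), in 44.5% of peaks with a protein-coding gene and in 36.4% of all peaks. The shares of members and of all peaks were thus close, and the interval of the members held the share of all peaks.

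At the *Hes1* promoter the CCAAT sat at -96 from the nearest transcript start, and 2 TGGGAA words followed it at -77.5 and -63.5, measured to the middle of each word. *Hes1* encodes the repressor that is the classical target of Notch. TGGGAA, searched on both strands, occurred in the centre of 5 pathway peaks (20%) and of 17.9% of all peaks. It was found at *Hes1*, *Hey2*, *Mfng*, *Dvl1* and the farther *Heyl* peak. CTTTGA, the core of TCF/LEF sites, was found in 2 pathway peaks (8%) and in 10.2% of all peaks. CAGAC, the SMAD box, was found in 10 (40%) and in 41.1%, and the GC box GGGCGG in 9 (36%) and in 27.8%. Of peaks at starts 50% of pathway peaks and 56.7% of all with a protein-coding gene held the GC box. These words are short, and a match is no evidence of a bound factor.

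The deposited distances placed 14 of the 25 pathway peaks (56%, interval 37.1% to 73.3%) within 1000 bases of the assigned start, beside 67.4% of all peaks with a protein-coding gene. The member just inside this limit was *Hes1*, at 872 bases, and the one just outside was the stronger *Smad6* peak, at 1006 bases. For *Hes1* and the stronger *Hes6* peak the deposited distances of 872 and 723 bases refer to the outermost start of the gene, whereas in GENCODE M21 shorter transcripts of both start closer, with the peak centres at -84 and -92.5. CCAAT then lay at -96 and -104. In *Tgfbr1*, *Tgfbr2*, *Fzd1*, *Fzd2*, *Fzd4*, *Hey2* and *Maml1* it lay between -129 and -48, whereas it lay at -430 in *Fzd7*, at -15 in *Smad2*, at 26 in the weaker *Smad6* peak and at 469 in *Acvr1*. Over all peaks at protein-coding starts the median position was -64, with quartiles of -123 and -13, measured from the outermost start of the gene. On that measure CCAAT lay at 860 in *Hes1*, at 712 in the stronger *Hes6* peak and at 800 in *Acvr1*.

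**Figure D1:**
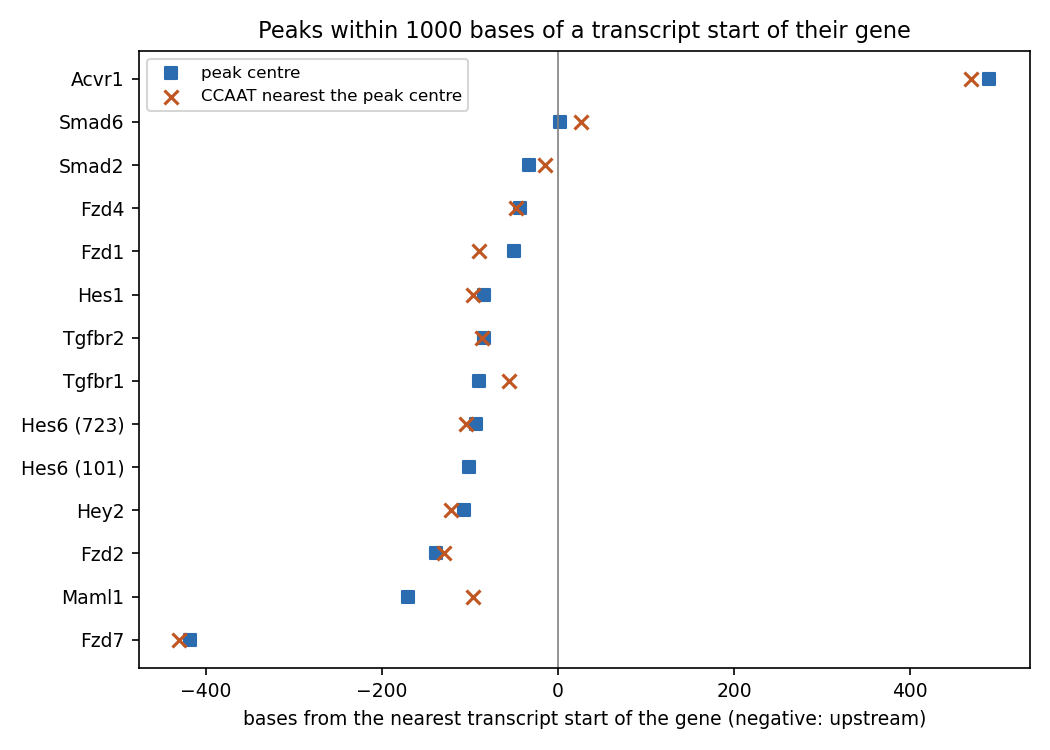
Position of the peak centre (squares) and of the CCAAT nearest to it (crosses) in bases from the nearest transcript start of the gene, for the 14 pathway peaks within 1000 bases of such a start; numbers in brackets are deposited distances in bases. Most centres lie just upstream of the start, *Fzd7* at -417.5 and *Acvr1* at 490 stand apart, and the weaker *Hes6* peak has no CCAAT.

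Not every level of the pathways carried a peak. Of 125 protein-coding genes in GENCODE M21 that match the rule, 22 (17.6%) had one, beside 14.6% of all 21951 protein-coding genes. The rule also matches 11 genes by symbol that are no core component, and 0 of them had a peak. Peaks were found at 4 of 9 *Hes* and *Hey* genes, 2 of 3 fringe genes, 4 of 12 Wnt receptor genes, 2 of 4 cytoplasmic transducer genes of the Wnt pathway and both inhibitory SMAD genes. They were also found at 1 of 4 Notch receptor genes, 2 of 5 nuclear factors of the Notch pathway, 3 of 13 TGF-beta and BMP receptor genes and 1 of 6 other SMAD genes. Among ligand genes 0 of 5 for Notch, 1 of 19 for Wnt and 0 of 18 for TGF-beta and BMP had a peak. Wnt nuclear factors (0 of 4), the destruction complex (0 of 3), SMURF (0 of 2) and TGIF genes (0 of 2) and extracellular modulators of TGF-beta (0 of 3) had none either. No difference between these groups was tested.

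The strength of binding ranged widely. The median of the mean value over 4 libraries was 34.75 for pathway peaks, 34.5 for all peaks with a protein-coding gene and 17.25 for all peaks. An average of at least 100 was reached by 5 pathway peaks (20%), by 22.6% of peaks with a protein-coding gene and by 13.5% of all peaks. These 5 were at *Fzd2*, *Hes6*, *Smad2*, *Smad6* and *Hes1*.

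**Figure D2:**
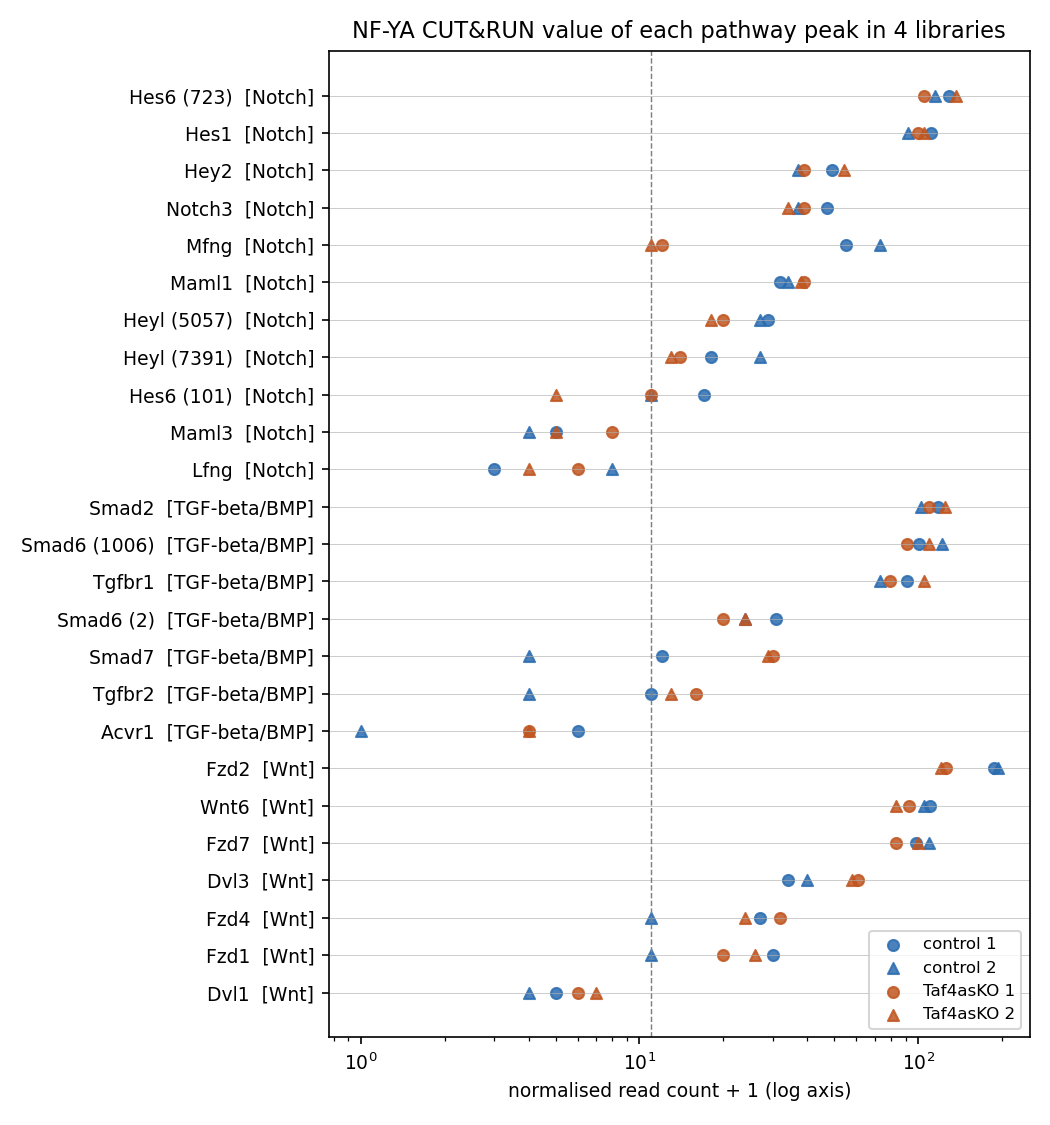
Normalised read count plus 1 (log axis) of the 25 pathway peaks in each of the 4 NF-YA libraries, with genotype by colour and replicate by shape; numbers in brackets are deposited distances in bases to the start, and the dashed line marks the mean value of 10 needed for the test. Most peaks have overlapping genotypes, while both Taf4asKO libraries lie far below both control libraries at *Mfng*.

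To determine whether loss of *Taf4a* changed NF-YA binding at these genes, the genotypes were compared with limma on log2(value + 1). The 21 pathway peaks that averaged at least 10, at 18 genes, were tested among 4746 peaks in all. At an adjusted p under 0.05 1 pathway peak was called, at *Mfng*, while 0.948% of all tested peaks were called and 0.611% were called lower in Taf4asKO. At an unadjusted p under 0.05 there were 4 pathway peaks (19.0%), and 17.9% of all tested peaks. Control and Taf4asKO values were fully separated at 9 of the 21 tested pathway peaks (42.9%), 4 higher and 5 lower in Taf4asKO, and at 47.9% of all tested peaks. Both of these shares were near the background. The median log2 fold change, Taf4asKO minus control, was -0.03 for pathway peaks and -0.04 for all tested peaks.

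**Figure D3:**
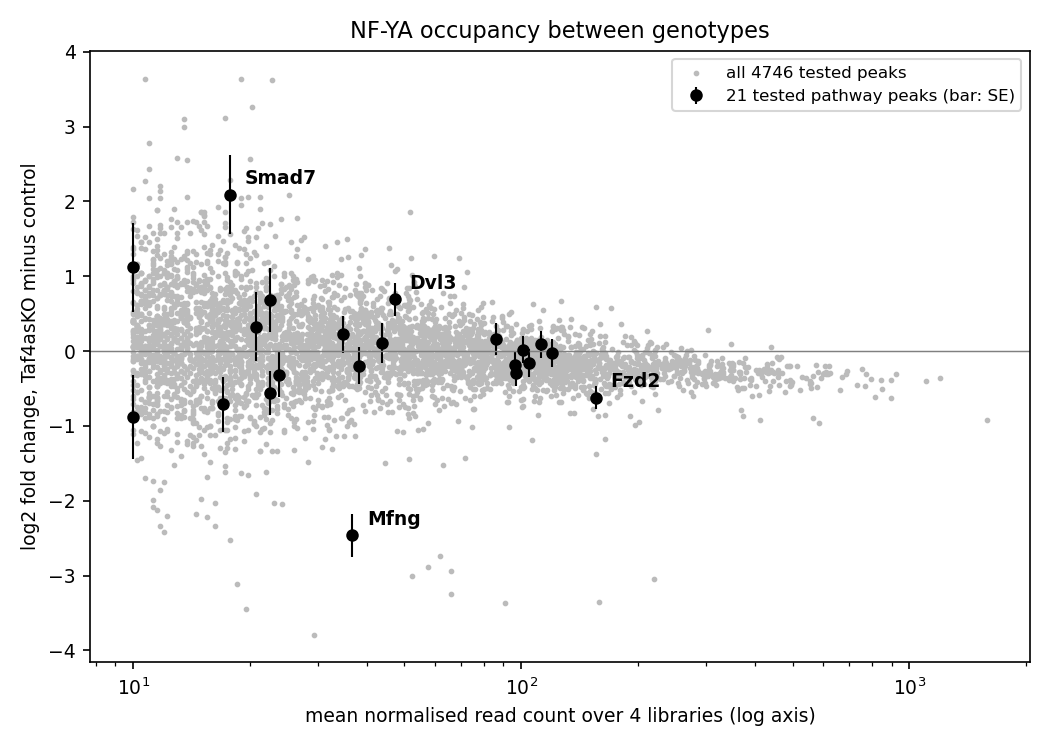
Log2 fold change (Taf4asKO minus control, on log2(value + 1)) against the mean normalised read count over 4 libraries (log axis), for 4746 tested peaks (grey) and 21 pathway peaks (black, bars are SE). *Mfng* at -2.46 lies below the bulk of peaks of its strength, and *Fzd2*, *Smad7* and *Dvl3*, also named in the plot, had an unadjusted p under 0.05 only.

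*Mfng* (ENSMUSG00000018169) encodes Manic fringe, a glycosyltransferase that modifies Notch receptors and alters their response to ligands. Its peak at chr15:78763680-78763878 lay in intron 4 of the gene, 9696 bases from the gene start and 3385 bases from the nearest transcript start of *Mfng* in GENCODE M21, and held 3 CCAAT. Values were 54 and 72 in control, against 11 and 10 in Taf4asKO, so that both Taf4asKO libraries were below both control libraries. The mean fell from 63.0 ± 12.7 to 10.5 ± 0.707 (SD, n = 2 libraries each), which is 6.0-fold lower. The log2 fold change was -2.46 (limma adjusted p = 0.0046, SE 0.29). Leaving out any 1 of the 4 libraries ended this call, with log2 fold changes between -2.67 and -2.26 and limma adjusted p from 0.188 to 0.744, and no peak of the whole table was called in those fits, where 225 to 1088 had an unadjusted p under 0.05.

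The second fringe gene with a peak, *Lfng* (Lunatic fringe), stood at 2 and 7 in control, against 5 and 3 in Taf4asKO. This peak was too weak to be tested.

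Of the nuclear targets of Notch, *Hes1* (ENSMUSG00000022528, chr16:30065119-30065393) stood at 110 and 91 in control, against 99 and 104 in Taf4asKO. The stronger peak of *Hes6* (ENSMUSG00000067071, chr1:91413164-91413465), a gene of the same family that promotes differentiation in several lineages, had 128 and 114 in control, against 104 and 135 in Taf4asKO. The Taf4asKO values fell within or around those of control at both genes. The log2 fold change was 0.02 (limma adjusted p = 0.961, SE 0.18) at *Hes1* and -0.03 (SE 0.18, adjusted p = 0.948) at *Hes6*, and the sign of both turned with the scaling of the libraries. *Hey2*, a related repressor, had 48 and 36 in control, against 38 and 53 in Taf4asKO, again overlapping.

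The weaker *Hes6* peak, at the outermost start of the gene, had 16 and 10 in control, against 10 and 4 in Taf4asKO. Its log2 fold change of -0.88 (SE 0.56) missed the threshold, with a limma adjusted p of 0.422, and lay between -1.45 and -0.31 without control replicate 2 or either Taf4asKO library. Its Taf4asKO mean of 7 was below the minimum, and without control replicate 1 the peak was not tested. *Heyl*, another Hey family gene, had a pair of intergenic peaks upstream of its start and none at the start itself. The nearer, at 5057 bases, had 28 and 26 in control, against 19 and 17 in Taf4asKO, and the farther, at 7391 bases, 17 and 26 in control, against 13 and 12 in Taf4asKO. Both were lower in both Taf4asKO libraries, but neither passed the test (limma adjusted p = 0.341 and 0.336). Soft-masked repeat sequence covered 54.6% of the farther peak, which was the only pathway peak to exceed 50%, and 3.57% of all peaks reached that share.

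Among Notch receptors only *Notch3* had a peak. It was 500 bases wide, in intron 2 of the gene, with CCAAT outside its central 200 bases, with values of 46 and 36 in control, against 38 and 33 in Taf4asKO. Of the Mastermind coactivators, *Maml1* had 31 and 33 in control, against 38 and 37 in Taf4asKO at its promoter, which did not overlap, with a log2 fold change of 0.22 (limma adjusted p = 0.649, SE 0.24). *Maml3* was not tested, with values from 3 to 7.

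Of the Wnt receptors, *Fzd2* (ENSMUSG00000050288, chr11:102604090-102604425) had the strongest of the 25 peaks. Values were 186 and 192 in control, against 125 and 120 in Taf4asKO. The replicates lay close together and the genotypes well apart, with means of 189 ± 4.24 and 122.5 ± 3.54 (SD, n = 2 libraries each). The log2 fold change was -0.62 (SE 0.15), and the limma adjusted p of 0.0967 missed the threshold. It ranged from 0.0161 to 0.744 over the alternatives. Tested peaks averaging at least 100 had a median change of -0.22 in log2 units, so that strong peaks in general were lower in Taf4asKO on this scale. The 5 pathway peaks of this strength, *Fzd2* among them, had a median of -0.03. When libraries were centred on peaks averaging at least 100, *Fzd2* stood at -0.41.

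*Fzd7*, a Frizzled known to bind Wnt7a on MuSCs, had 97 and 108 in control, against 82 and 99 in Taf4asKO (ENSMUSG00000041075, chr1:59481865-59482148). These values overlapped. *Fzd1* had 29 and 10 in control, against 19 and 25 in Taf4asKO, and *Fzd4* had 26 and 10 in control, against 31 and 23 in Taf4asKO. At both genes control replicate 2, the shallowest library, was the lowest and rested on 3.1 reads, and the log2 fold changes of 0.33 (SE 0.46) and 0.69 (SE 0.43) were not called. Without 1 library they lay between -0.40 and 1.05 at *Fzd1* and between 0.04 and 1.33 at *Fzd4*.

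*Wnt6* (ENSMUSG00000033227), the only Wnt ligand gene with a peak, was bound in intron 1 of the gene at chr1:74773111-74773400. Values were 109 and 104 in control, against 92 and 82 in Taf4asKO. The genotypes did not overlap, and the log2 fold change was -0.29 (limma adjusted p = 0.398, SE 0.18).

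Of the Dishevelled genes, *Dvl3* was assigned a peak 7967 bases upstream that lies in an untranslated exon of another gene, *Eif2b5*, so that its link to *Dvl3* rests on distance alone. Values were 33 and 39 in control, against 60 and 57 in Taf4asKO. This was higher in both Taf4asKO libraries, with a log2 fold change of 0.69 (limma adjusted p = 0.160, SE 0.22), which was not called. *Dvl1* was too weak to be tested, with values from 3 to 6.

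Of the TGF-beta receptors, *Tgfbr1* (ENSMUSG00000007613, chr4:47352995-47353270) had 90 and 72 in control, against 78 and 104 in Taf4asKO at its promoter. *Tgfbr2*, which encodes the partner receptor kinase, had 10 and 3 in control, against 15 and 12 in Taf4asKO. The first overlapped between genotypes. The second did not, but control replicate 2 rested on 0.9 reads there, and the log2 fold change of 1.12 (SE 0.59) was not called (limma adjusted p = 0.340) and was 1.85 without control replicate 1 and 0.39 without control replicate 2. Its control mean of 6.5 was below the minimum, and without either Taf4asKO library the peak was not tested. *Acvr1*, a BMP type I receptor gene, was not tested, with values from 0 to 5.

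*Smad2*, a signal-transducing SMAD gene, had a promoter peak with 117 and 101 in control, against 108 and 124 in Taf4asKO. The inhibitory *Smad6* (ENSMUSG00000036867) had a strong peak at chr9:64022882-64023247 with 100 and 121 in control, against 90 and 108 in Taf4asKO. A weaker one at its start had 30 and 23 in control, against 19 and 23 in Taf4asKO. None of the 3 separated the genotypes.

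*Smad7*, the other inhibitory SMAD gene, had an intergenic peak 3573 bases upstream of its start. A transcript start of another gene, *Gm20544*, lay closer, at 3132 bases, so that the link to *Smad7* rests on the deposited assignment alone. Values were 11 and 3 in control, against 29 and 28 in Taf4asKO, corresponding to about 10.5 and 0.9 reads in control and 67.3 and 41.1 reads in Taf4asKO. The control mean of 7 was below the minimum of 10, so that the peak was tested only because of its Taf4asKO values. Both Taf4asKO libraries were higher, with a log2 fold change of 2.09 (SE 0.52), and the limma adjusted p of 0.0979 missed the threshold. Over the alternatives this p ranged from 0.0252 to 0.744, and without 1 library the log2 fold change lay between 1.30 and 2.88.

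A wider list of 143 genes of the same pathways, which the naming rule leaves out, was examined in the same way. Peaks were found at 33 of them (23.1%), beside 14.6% of all protein-coding genes, 39 peaks in all, of which 33 were tested and 0 were called by limma, with 6 (18.2%) at an unadjusted p under 0.05, beside 17.9% of all tested peaks. Control and Taf4asKO values were fully separated at 20 of the 33 (60.6%), beside 47.9% of all tested peaks. The 6 peaks are given by their values. Of the tested peaks 17 were below 0, and their median log2 fold change was -0.01. The strongest was at the promoter of *Gsk3b*, the kinase that marks beta-catenin for destruction, with 911 and 874 in control, against 634 and 652 in Taf4asKO. Its log2 fold change was -0.47 (limma adjusted p = 0.068, SE 0.10). *Dact3*, a regulator of Dishevelled, had 557 and 678 in control, against 411 and 444 in Taf4asKO, with a limma adjusted p of 0.0967. Both genes also had a weaker peak outside the 6. That of *Dact3* was higher in Taf4asKO, with 9 and 13 in control, against 16 and 15. That of *Gsk3b* overlapped, with 17 and 13 in control, against 12 and 15 in Taf4asKO. *Tle2*, a corepressor gene, had 231 and 222 in control, against 162 and 180 in Taf4asKO, and *Id4*, a target of BMP signals, had 104 and 121 in control, against 64 and 84 in Taf4asKO. The remaining peaks of the 6 had higher values in Taf4asKO. *Pygo2*, a nuclear cofactor of beta-catenin, had 4 and 7 in control, against 15 and 18 in Taf4asKO. Its control mean of 5.5 was below the minimum of 10, so that it was tested only because of its Taf4asKO values. *Sfrp1*, a secreted Wnt antagonist, had 10 and 13 in control, against 18 and 29 in Taf4asKO. None of the 6 was called, and their limma adjusted p lay between 0.068 and 0.236. *Gsk3b*, *Dact3* and *Tle2* averaged over 100, where the median change of all tested peaks was -0.22 in log2 units.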

How the data were processed

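The authors aligned NF-YA CUT&RUN read pairs to mm10, called peaks against IgG with MACS and merged them. The submitters' processing notes name Trimmomatic 0.39, STAR 2.7.11a, Picard 3.1.1, featureCounts and DESeq2 1.36.0. The deposited score per peak and library is the DESeq2-normalised read count rounded to whole numbers by the authors. The value of 1 read was recovered from gaps between values in control. In Taf4asKO it is below the rounding unit and was estimated by a Poisson fit to how often each value occurred. Whole reads stayed ambiguous there, so that no count model was run. Groups came from the labels. Genotypes were compared with limma 3.58.1 (R 4.3.3) on log2(value + 1) with a variance trend, for peaks averaging at least 10, with Benjamini-Hochberg adjustment over all tested peaks. The log2(value + 1) scale understates changes of low peaks. Fits and read values were tested on simulated data. Genes and transcripts are from GENCODE M21. Intervals are 95% Wilson intervals for shares of peaks and leave out error within peaks. Described in full are called peaks, the 10 strongest, the 5 largest increases and decreases, and the peak nearest the start of genes with more than 1 peak; other members and genes beyond the rule were chosen after their values were seen. Members and lists were chosen with earlier results of these data known. Other scalings, minima, pseudocounts, weights, windows, thresholds, a replicate block and leaving out each library were tried.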

Additional observations from a re-analysis of the deposited data

How the results depend on the processing

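The call at *Mfng* held under other scalings, a minimum of 20, a pseudocount of 5, weights from the reads and the replicate block, and its direction in every setting. It was lost with no minimum (limma adjusted p = 0.178) and without any 1 library. The number of pathway peaks called, 1, became 3 with equal library medians, 3 with weights from the reads, 2 with a minimum of 20, 3 at an adjusted p under 0.1, 0 with no minimum and 0 to 0 without 1 library. The number over all peaks, 45, became 314 with equal medians, 349 with weights, 126 with a minimum of 20, 131 at 0.1, 0 with no minimum (1015 at an unadjusted p under 0.05) and 0 to 0 without 1 library, and the causes were not tested. Of the 45, 16 were higher; equal totals gave 30 higher of 61, equal medians 55 of 314 and centring on strong peaks (mean 100 or more) gave 29 of 51. Those scalings put the median of all tested peaks at 0.10, -0.17 and 0.17. The median of pathway peaks moved to -0.22 with equal medians and 0.18 with centring.

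Among fold changes near 0, signs reversed with equal medians at *Hes1* (-0.10), *Hey2* (-0.015) and *Smad2* (-0.036), with weights at *Hes1* (-0.044), *Hey2* (-0.011) and *Fzd1* (-0.23), with equal totals at the stronger *Hes6* peak (0.12), and with centring at that peak (0.18), *Notch3* (0.016), the stronger *Smad6* peak (0.055) and *Fzd7* (0.029). Without 1 library they ranged from -0.12 to 0.16 at *Hes1*, -0.21 to 0.16 at the stronger *Hes6* peak, -0.13 to 0.34 at *Hey2*, -0.016 to 0.19 at *Smad2*, -0.045 to 0.37 at *Tgfbr1* and -0.40 to 1.05 at *Fzd1*. Shares with CCAAT and near starts, and the count of peaks whose genotypes did not overlap, stayed within 1.5 times under each alternative run.

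Replicate numbers mark no shared animal or batch in the labels. Deviations of same-numbered libraries correlated at -0.09 over tested peaks and at 0.26 over those averaging at least 100, and the replicate block gave 31 calls over all peaks, 3 of them higher in Taf4asKO, and 1 among pathway peaks. In fits without 1 library the lone library of a genotype is assumed to vary like the other genotype. The planned edgeR and DESeq2 fits were not run, since whole reads could not be recovered. Weak peaks rested on few reads in control replicate 2, which held a median of 4.91 reads per peak.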
